A study of Mus musculus with 2 samples.

Results

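The mesenchymal transcription factor genes followed here in mouse mammary stroma were the T-box genes *Tbx3*, *Tbx5*, *Tbx15* and *Tbx18*, the homeobox genes *Meox1*, *Meox2* and *Prrx1*, and the basic helix-loop-helix (bHLH) genes *Twist1*, *Twist2* and *Tcf21*. They were chosen by symbol, and all 10 were among the 33696 genes listed for both libraries. The stroma came from wildtype C57BL/6 females at puberty (4 weeks of age) and as adult virgins (9 weeks), with 2 females per condition per the labels, and had been sorted as Lin-CD24-, a gate against blood, endothelial and epithelial cells. Single-cell RNA sequencing (scRNA-seq) gave 1 library per stage, both labelled replicate 2. There was therefore no replicate check, no test between stages could be made, and differences between the animals or between the libraries cannot be told apart from stage.

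After filtering, 21534 pubertal and 22972 adult cells remained, with median depths of 11763 and 10842 unique molecular identifiers (UMIs, each counting 1 captured transcript). Of these, 18878 and 20999 had a *Pdgfra* UMI and are called *Pdgfra*+ cells. The fibroblast markers *Dcn*, *Lum*, *Col1a1*, *Col1a2* and *Col3a1* summed to 47955 CPM (UMIs per 1000000) in pubertal and 35097 CPM in adult *Pdgfra*+ cells, against 5211 and 1734 CPM in the 783 and 457 cells that had *Myh11* or *Rgs5* and no *Pdgfra* UMI. Those latter cells, named mural here after the perivascular cells these genes mark, carried 8 mural markers at a sum of 22081 and 19084 CPM, against 95.2 and 57.7 CPM in *Pdgfra*+ cells. *Myh11* and *Rgs5* are among those 8, and the other 6 summed to 14580 and 11234 CPM, against 60.8 and 38.1 CPM. The libraries shared 143 cell barcodes after filtering.

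Within the *Pdgfra*+ cells 5 marker subsets were read out. Cells with both *Pi16* and *Dpp4*, markers of fibroblast progenitors, made up 74.1% of pubertal and 42.2% of adult *Pdgfra*+ cells. *Gdf10* or *Fmo2* marked 39.5% and 47.9%, *Thbs4* or *Bmp5* 4.91% and 14.8%, at least 2 UMIs of *Fabp4* 9.42% and 12.2%, and *Crabp1* 1.53% and 12.7%. The subsets overlapped: 30.7% and 35.5% of *Pdgfra*+ cells lay in more than 1 of them. Such cells were more often among those that Scrublet, a doublet caller, scored highest (16.4% and 17.9%) than cells of a single subset (at most 6.69% and 7.13%). Values in cells of exactly 1 subset are therefore given beside the main ones.

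T-box, homeobox and bHLH proteins bind DNA and set cell identity in the embryonic mesoderm, and many stay expressed in adult fibroblasts, where they keep a record of position and lineage. T-box proteins bind the T-site, bHLH proteins pair with partners such as *Tcf3*, *Tcf4* and *Tcf12* products to bind the E-box, and *Id* proteins block that pairing. *Tbx3* is known in the mammary gland for its part in forming the embryonic mammary placode.

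The genes lie on 7 chromosomes of GRCm38. *Tbx3* (chr5:119670669-119684724) and *Tbx5* (chr5:119832668-119885219) are neighbours on the plus strand of chromosome 5, 148 kb apart. *Twist1* (chr12:33957671-33959829) and *Meox2* (chr12:37108540-37179534) are 3149 kb apart on chromosome 12. *Tbx15* is at chr3:99240381-99354259, *Tbx18* at chr9:87702800-87731260, *Meox1* at chr11:101877510-101894374, *Twist2* at chr1:91801461-91848028, *Prrx1* at chr1:163245119-163313710 and *Tcf21* at chr10:22817281-22820174.

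Since bHLH and homeobox members are in the group themselves, the 250 bases before the start of transcription were searched for the E-box CANNTG and for TAATTA, a core that homeodomain proteins can bind. Both read the same on either strand. RefSeq promoters (GRCm38.p6) were at hand for 6 members. *Tbx18* and *Meox2* each held 1 E-box, *Prrx1* held 1 TAATTA and no E-box, and *Twist1*, *Twist2* and *Tcf21* held neither. Of all 32851 promoters, 66.2% held an E-box and 4.84% TAATTA. The matches are shown with the motif in capitals, 5′ to 3′ on the strand of the gene. They lie at chr12:37108446-37108475 (plus strand), chr9:87731411-87731440 (minus strand) and chr1:163313806-163313835 (minus strand), with the motif beginning 82, 168 and 173 bases before the RefSeq start, which for *Prrx1* lies inside the GENCODE span given above.
Meox2: ggagggagtttgCATGTGgtcagcgctggg
Tbx18: gcagagacgagcCAGATGgcggcgcttttc
Prrx1: gcaagggaatgaTAATTAgacctttatttt

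The members spanned more than 3 orders of magnitude in *Pdgfra*+ cells, and their order was the same at both stages apart from *Tbx5*, which stood above *Tbx3* and *Meox1* at puberty and below them in the adult. Counting intervals of neighbours in this order did not overlap at either stage. *Prrx1*, a marker of limb and craniofacial mesenchyme, was highest, with 559 CPM at puberty (95% Poisson interval 556 to 562) and 492 in the adult (489 to 495). *Twist1*, a regulator of mesoderm formation, followed with 185 and 215 CPM, and *Tbx15*, known for its part in dermal and skeletal patterning, with 114 and 138 CPM. *Twist2*, the dermal relative of *Twist1*, was at 56.0 and 46.7 CPM.

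The lower members were *Meox2* at 31.4 and 35.0 CPM, *Tbx18* at 18.3 and 22.6, *Tbx5* at 10.6 in the adult with a pubertal interval of 11.6 to 12.5, *Tbx3* at 8.62 and 18.0, and *Meox1* at 3.05 and 16.6. *Tcf21*, a marker of visceral and epicardial fibroblasts, was near absent, with 52 UMIs in all pubertal and 53 in all adult *Pdgfra*+ cells (0.220 and 0.214 CPM). Intervals here and below cover counting error only, and CPM of 3′ tags do not scale with transcript length.

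**Figure D1:**
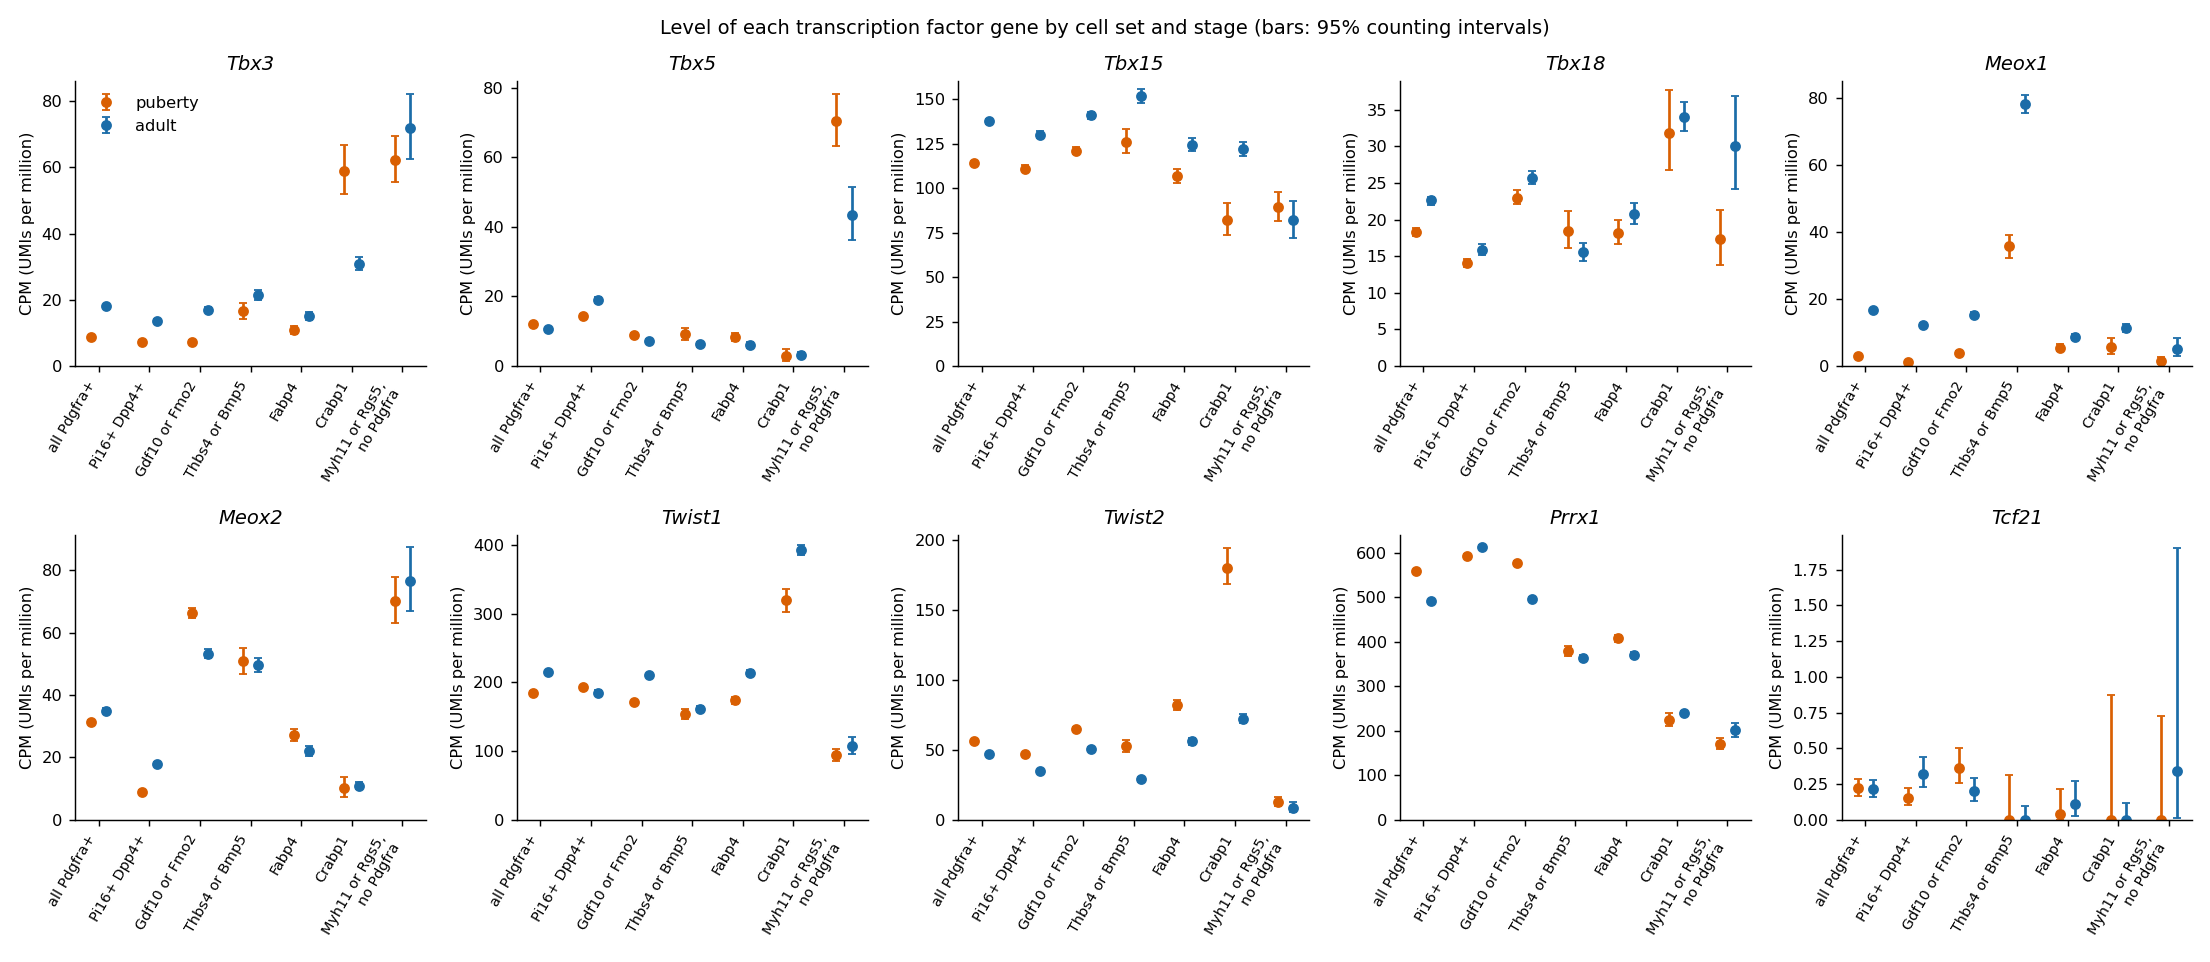
Level of the 10 genes in all Pdgfra+ cells, the 5 marker subsets and mural cells, as CPM of summed UMIs with 95% Poisson intervals, 1 library per stage. Meox1 stands highest in the Thbs4 or Bmp5 subset (35.7 CPM at puberty, 78.3 in the adult), Twist2 in the pubertal Crabp1 subset (180 CPM), and Tbx5 in mural cells (70.4 and 43.3 CPM).

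After each cell was thinned to 3000 UMIs, detection followed the same order: *Prrx1* had a UMI in 76.5% of the *Pdgfra*+ cells of puberty and 66.6% of those of the adult, *Twist1* in 38.7% and 41.5%, and *Tbx15* in 27.2% and 32.4% (unthinned 96.6% and 89.4%, 78.4% and 76.5%, and 64.6% and 67.1%). *Twist2* was found in 12.9% and 11.4%, *Meox2* in 7.05% and 8.13%, *Tbx18* in 5.32% and 6.85%, *Tbx5* in 3.48% and 2.78%, *Tbx3* in 2.28% and 5.23%, and *Meox1* in 0.701% and 3.53%. Unthinned, the order differed: *Tbx18* (17.2% and 20.0%) was found in more cells than *Meox2* (15.2% and 19.1%), and in the adult *Tbx5* (9.89%) in more than *Meox1* (7.91%). Thinning left out 336 and 426 cells with fewer UMIs. In Schwann-like cells, which had at least 3 of 5 Schwann markers, no *Twist1* UMI was found in 51 pubertal and 50 adult cells, which allows shares of cells with a UMI of up to 5.88% and 6.00% and does not bound the share that expressed it. Their median depth was lower, at 3723 and 2611 UMIs against 12187 and 11265 in *Pdgfra*+ cells.

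The first comparison was between stages over all *Pdgfra*+ cells. *Tbx3* and *Meox1* were higher in the adult by more than 1.5-fold, and no member was lower by that much, among 9 members with a mean of at least 5 CPM. Over all 10063 genes at that level, 12.6% were higher and 4.89% lower past the same fold, and the median log2 ratio was 0.14, against 0.21 for the 9 members. *Meox1* was 5.45-fold higher (conditional binomial interval 5.03 to 5.91) and *Tbx3* 2.08-fold (1.98 to 2.20).

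The other ratios of adult over puberty lay between 0.834 for *Twist2* and 1.23 for *Tbx18*. Divided by the median of all genes, *Meox1* was 4.93-fold and *Tbx3* 1.88-fold higher, *Tbx18*, *Tbx15*, *Twist1* and *Meox2* stood at 1.11, 1.09, 1.05 and 1.01, and *Tbx5*, *Prrx1* and *Twist2* at 0.799, 0.797 and 0.755. The mix of cells also differed between stages. With equal weight for cells of each single subset and cells of none (6 sets), the ratio was 1.68 for *Meox1*, 0.977 for *Tbx3* and 0.494 for *Twist2*, and those of *Tbx5* (1.12), *Prrx1* (1.04), *Tbx18* (0.873) and *Meox2* (0.720) changed side of 1.

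**Figure D2:**
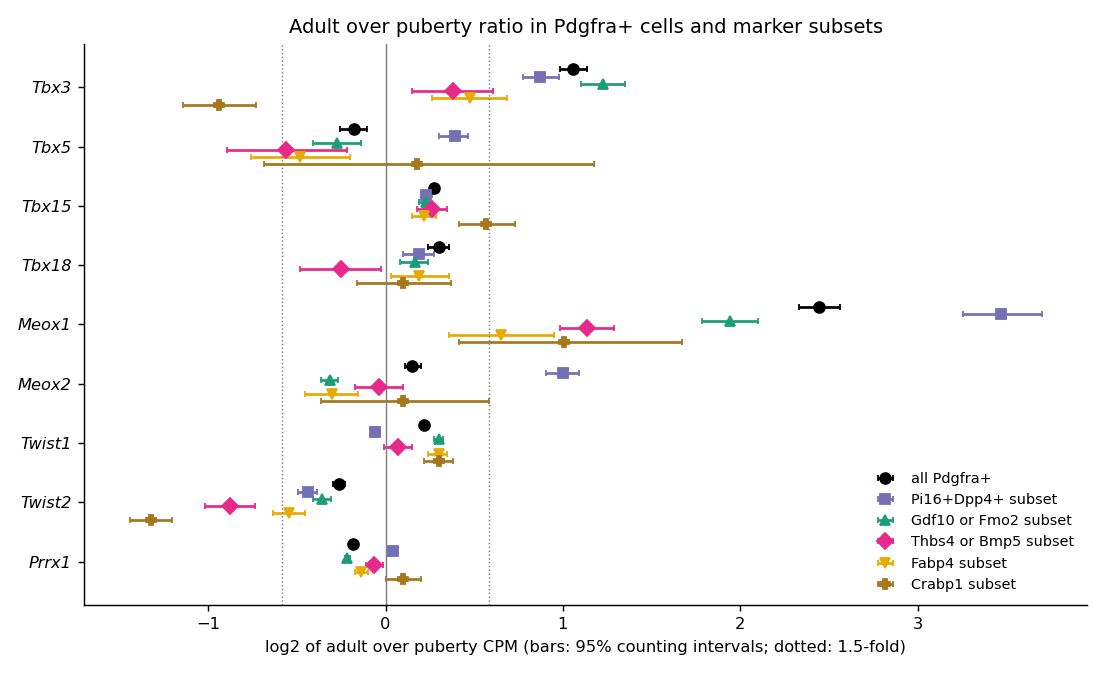
Log2 ratio of adult over puberty CPM of the 9 members above the level filter, in all Pdgfra+ cells and the 5 subsets, with 95% counting intervals. Meox1 lies above 0 and Twist2 below 0 in every subset, while Tbx3 lies at 2.34-fold in the Gdf10 or Fmo2 subset and at 0.522 in the Crabp1 subset.

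Within the subsets, 3 members kept 1 direction in all 5 subsets with intervals clear of 1. *Meox1* ratios ran from 1.57 to 11.1 and *Tbx15* ratios from 1.16 to 1.48, both higher in the adult, and *Twist2* ratios from 0.779 down to that of *Crabp1* cells (interval 0.368 to 0.434), lower in the adult. In cells of a single subset the interval stayed clear of 1 in 5 of 5 subsets for *Twist2* (0.301 to 0.758), and in 4 of 5 for *Meox1* (1.08 to 6.10) and for *Tbx15* (1.01 to 1.36). The median log2 ratio of all genes was 0.09 to 0.14 over the 5 subsets.

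Past 1.5-fold, *Tbx3*, *Meox1* and *Meox2* were higher in adult *Pi16*+*Dpp4*+ cells (3 of 9 members, background 10.3% of all genes higher and 3.66% lower). *Tbx3* and *Meox1* were higher in *Gdf10* or *Fmo2* cells (2 of 9, background 11.1% and 5.46%). In *Thbs4* or *Bmp5* cells *Meox1* was higher and *Twist2* lower (1 and 1 of 9, background 6.62% and 5.55%). *Meox1* alone was past that fold in *Fabp4* cells (1 of 9, background 8.68% and 5.32%). In *Crabp1* cells *Meox1* was higher and *Tbx3* and *Twist2* lower (1 and 2 of 8, background 9.31% and 6.74%).

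Cells of a single subset gave partly other calls between stages. *Tbx3*, *Tbx5* and *Meox2* were higher in cells of the *Pi16*+*Dpp4*+ subset alone, where *Meox1* was below the level filter (3 of 8, background 9.11%). In *Gdf10* or *Fmo2* cells *Tbx3*, *Meox1* and *Twist1* were higher and *Meox2* lower (3 and 1 of 8, background 9.82% and 5.16%). The *Meox1* call in *Fabp4* cells was lost, at 1.08-fold (0.651 to 1.79, from 32 and 36 UMIs), and *Tbx18* was higher and *Twist2* lower there (1 and 1 of 8, background 14.0% and 5.56%). *Tbx18* joined *Twist2* among those lower in *Thbs4* or *Bmp5* cells (2 of 8, background 7.05%). *Crabp1* cells had the same members called, 1 higher and 2 lower of 7. Of all 10123 genes at that level in those *Crabp1* cells, 1520 were higher and 949 (9.37%) lower.

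How evenly a gene was spread over the fibroblast subsets differed widely among the members. *Tbx15* was the most even, with a highest over lowest level of 1.65 at puberty and 1.38 in the adult over cells of a single subset or of none. *Prrx1* spanned 4.93-fold and 4.04-fold, *Twist1* 3.71-fold and 3.85-fold, *Tbx18* 3.40-fold and 2.55-fold, and *Twist2* 6.65-fold and 4.33-fold. *Tbx3* narrowed from 12.7-fold to 2.79-fold. *Tbx5* spanned 33.3-fold in the adult and had no UMI in its lowest pubertal set, and *Meox2* spanned 252-fold and 15.7-fold, the lowest pubertal level from 1 UMI. Leaving out *Tcf21*, *Meox1* was the least even at both stages by its coefficient of variation over the 6 sets (199% and 184%), with spans of 620-fold and 193-fold, the lowest pubertal level from 14 UMIs.

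*Meox1*, a somite homeobox gene, was concentrated in the *Thbs4* or *Bmp5* subset. This subset was 4.91% of pubertal and 14.8% of adult *Pdgfra*+ cells and held 58.1% and 74.3% of their *Meox1* UMIs. In the pubertal subset the level was 35.7 CPM (32.3 to 39.2), in the adult one 78.3 CPM (75.5 to 81.1), against 1.34 and 5.07 CPM in the other *Pdgfra*+ cells. That is 26.6-fold (22.9 to 30.9) and 15.4-fold (14.4 to 16.6) higher, and 57.0-fold and 23.7-fold for cells of no other subset. Thinned cells had a *Meox1* UMI in 7.37% and 15.8% of this subset (unthinned 17.3% and 30.2%), against 0.224% and 2.37% of *Pi16*+*Dpp4*+ cells (unthinned 0.729% and 5.65%). Cells of this subset alone had 76.5 and 120 CPM, against 0.123 and 0.623 CPM in cells of the *Pi16*+*Dpp4*+ subset alone.

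Both markers of the subset counted. *Meox1* was at 101 and 153 CPM in cells with *Thbs4* and *Bmp5*, at 38.4 and 65.8 with *Thbs4* only, and at 7.42 and 21.4 with *Bmp5* only. It stood higher at each step of *Thbs4* count, from 1.48 CPM with no *Thbs4* UMI through 7.20 with 1 and 11.1 with 2 to 4, up to 101 with 5 or more at puberty, and 5.97, 20.2, 44.0 and 160 CPM in the adult. The pubertal steps at 1 and at 2 to 4 UMIs rested on 14 and 10 *Meox1* UMIs.

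The 11.1-fold stage ratio of *Meox1* in *Pi16*+*Dpp4*+ cells (1.09 to 12.1 CPM) was 5.05 (2.66 to 10.1) in cells of that subset alone, and the 3.84-fold ratio in *Gdf10* or *Fmo2* cells was 2.47. Of the *Pi16*+*Dpp4*+ cells, 3.02% at puberty and 15.6% in the adult also had *Thbs4* or *Bmp5*. *Meox1* had 5.66 CPM in pubertal *Crabp1* cells, 1.89-fold the others, but 1.58 CPM (2 UMIs) in those of no other subset, a ratio of 0.526. The 8 mural markers summed to 488 and 124 CPM in the *Thbs4* or *Bmp5* cells, above the 95.2 and 57.7 CPM of all *Pdgfra*+ cells, while *Meox1* itself was at 1.37 and 5.11 CPM in mural cells. Of these markers *Myh11* was at 368 and 84.2 CPM in cells with *Bmp5* only. With *Thbs4* only it was at 25.9 and 5.25 CPM, and with both at 1.40 and 31.7 CPM.

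*Meox2*, its paralogue, known for limb muscle patterning and for vascular cells, had its fibroblast peak elsewhere. The *Gdf10* or *Fmo2* subset held 88.1% of its pubertal and 77.5% of its adult UMIs in *Pdgfra*+ cells, with 66.3 CPM (64.7 to 67.9) and 53.3 CPM (52.0 to 54.6). That was 10.4-fold (9.65 to 11.1) and 3.33-fold (3.17 to 3.50) the level of the other *Pdgfra*+ cells, and 31.0-fold and 6.77-fold in cells of that subset alone. Its detection there after thinning was 14.9% and 12.2% (unthinned 29.3% and 26.5%). Cells with both *Gdf10* and *Fmo2* had 187 and 130 CPM, while cells with 1 of these markers had 17.7 to 23.9 CPM.

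By *Gdf10* count *Meox2* ran from 8.91 by way of 30.6 and 99.8 up to 235 CPM at puberty, and adult levels from 18.1 through 28.3 and 59.8 to 179 CPM. The contrast was steeper at puberty on both sides: *Pi16*+*Dpp4*+ cells went from 8.93 to 17.9 CPM (2.00-fold, 1.87 to 2.13), and *Gdf10* or *Fmo2* cells the other way (0.804, 0.777 to 0.832), from 199 to 108 CPM in cells of that subset alone. Among *Gdf10* or *Fmo2* cells, only those with both markers were lower in the adult (0.694, 0.667 to 0.723). Cells with *Gdf10* only were at 1.20 (1.08 to 1.33) and those with *Fmo2* only at 1.35 (1.23 to 1.49).

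**Figure D3:**
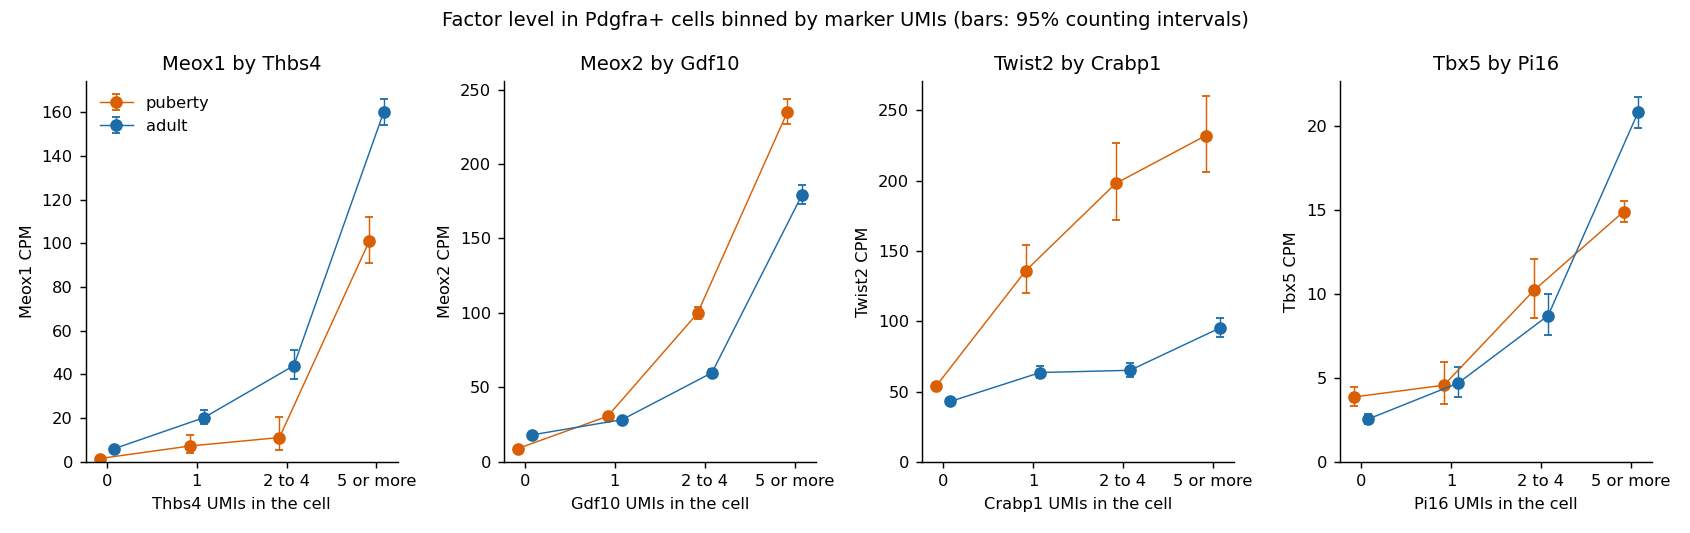
Level of Meox1, Meox2, Twist2 and Tbx5 in Pdgfra+ cells binned by the UMI count of a marker in the same cell, as CPM with 95% Poisson intervals. Each gene is highest in the bin of 5 or more marker UMIs at both stages, for example Meox1 at 101 and 160 CPM in cells with 5 or more Thbs4 UMIs.

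The 2 *Meox* genes were found in the same cell more often than the product of their shares, in 24 thinned pubertal cells where the product gives 9.16 (2.62 times) and in 112 adult cells against 59.0 (1.90 times). Both were higher in *Thbs4* or *Bmp5* than in other *Pdgfra*+ cells, *Meox2* by 1.67-fold and 1.54-fold. They went with different markers of that subset, *Meox2* being at 66.8 and 73.3 CPM in cells with *Bmp5* only and at 36.3 and 28.9 CPM in those with *Thbs4* only. Over the 12 profiles of cells in a single subset or none, which share 2 libraries, Pearson's r of log2(CPM + 1) was 0.51 for this pair. For *Twist1* and *Twist2* it was 0.63, for *Tbx15* and *Tbx18* -0.07, and for the chromosomal neighbours *Tbx3* and *Tbx5* -0.71. *Twist1* and *Twist2* were found together in 929 pubertal cells, as many as the product of their shares gives, and in 1029 adult cells, where it gives 972. *Tbx3* and *Tbx5* were found together in 28 thinned pubertal cells, where the product gives 14.7, and in 30 adult cells, where it gives 29.9. In unthinned cells the observed count was 1.20 and 0.953 times the product for this pair.

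**Figure D4:**
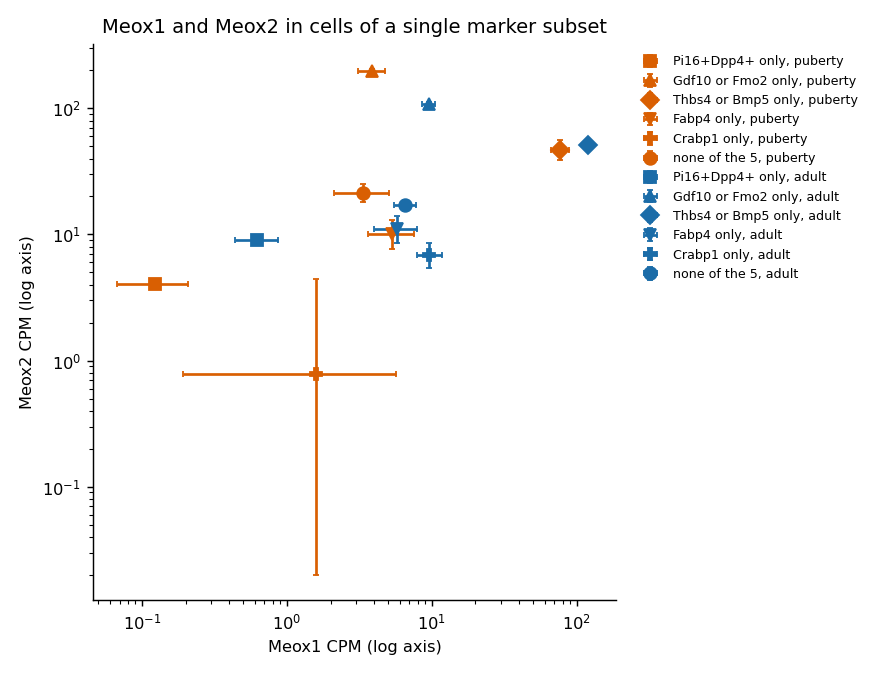
Meox2 against Meox1 CPM on log axes in cells of exactly 1 subset or of none, 6 sets per stage, with 95% Poisson intervals. The Thbs4 or Bmp5 cells lie far right (76.5 and 120 CPM of Meox1) and the Gdf10 or Fmo2 cells highest (199 and 108 CPM of Meox2), and the pubertal Crabp1 point rests on 2 Meox1 UMIs and 1 Meox2 UMI.

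*Twist1* and *Twist2* were both highest in *Crabp1* cells, and they parted between stages there. *Twist1* went from 319 CPM (302 to 336) to 392 CPM (385 to 399) in the adult, 1.74-fold and 2.08-fold the other *Pdgfra*+ cells. *Twist2* had 180 CPM (168 to 194) and 72.2 CPM (69.3 to 75.1), 3.36-fold and 1.68-fold the others, and 5.10-fold at puberty in those of no other subset. Its adult level overlapped the 68.3 CPM of cells in none of the 5 subsets within counting error. Thinned *Crabp1* cells had *Twist2* in 33.7% and 16.8% (unthinned 68.9% and 41.1%). In cells of that subset alone *Twist2* went from 274 to 82.3 CPM, a ratio of 0.301 (0.265 to 0.341), and *Twist1* from 430 to 478 CPM.

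Between stages *Twist2* was lower by more than 1.5-fold in *Thbs4* or *Bmp5* cells too, with 52.7 and 28.7 CPM (ratio 0.544, 0.493 to 0.601), and with a ratio of 0.356 in those of no other subset. Only 289 pubertal cells had *Crabp1*, 100 of them in no other subset, against 2672 and 1042 in the adult. At puberty *Twist2* was also past 1.5-fold in *Fabp4* cells, at 81.7 CPM and 1.54 times the others. The 8 mural markers summed to 698 CPM in those cells, and their part in this ratio was not tested.

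*Tbx3* shared the *Crabp1* peak. It had 59.0 CPM there at puberty (51.9 to 66.8), 7.66-fold the other *Pdgfra*+ cells, and 30.8 CPM in the adult (28.9 to 32.8), 1.92-fold the others, with detection of 13.2% and 8.19% after thinning (36.3% and 24.1% before). The stage ratio in *Crabp1* cells was 0.522 (0.454 to 0.603), against 2.34 (2.15 to 2.55) in *Gdf10* or *Fmo2* cells and 1.83 (1.71 to 1.97) in *Pi16*+*Dpp4*+ cells. In *Gdf10* or *Fmo2* cells of no other subset it went from 5.21 to 17.6 CPM (3.38-fold). *Tbx3* by *Crabp1* count ran from 7.70 by way of 41.7 and 56.7 up to 86.8 CPM at puberty. Adult levels were 16.0, 29.1, 27.6 and 37.6 CPM, the middle steps being close together.

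*Tbx18*, a gene of somite, epicardial and mural mesenchyme, was also past 1.5-fold in *Crabp1* cells (1.76 and 1.64 times the others, with 31.8 and 34.0 CPM). At puberty it was past it in *Gdf10* or *Fmo2* cells too, at 23.0 CPM and 1.53 times the others, and at 3.11 times in cells of that subset alone. The adult subset was at 1.33 times the others. Its cells of no other subset were past 1.5-fold, with 34.8 CPM against 19.3 CPM outside the subset. *Pi16*+*Dpp4*+ cells had less, 0.427 and 0.550 times the others, and adult *Thbs4* or *Bmp5* cells 0.649 times, their 15.5 CPM overlapping the 15.9 CPM of adult *Pi16*+*Dpp4*+ cells within counting error. *Tbx15* was within 1.5-fold of the other *Pdgfra*+ cells in every subset, its lowest ratio being 0.719 in pubertal *Crabp1* cells.

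*Tbx5*, a gene of heart and forelimb development, and *Prrx1* marked the opposite end. *Pi16*+*Dpp4*+ cells held 92.4% of the pubertal and 86.9% of the adult *Tbx5* UMIs of *Pdgfra*+ cells, at 14.5 and 18.9 CPM. The others had 3.92 and 2.71 CPM, so the ratio was 3.68 (3.20 to 4.25) and 6.97 (6.22 to 7.83), and thinned detection was 4.32% and 5.62% (unthinned 15.5% and 20.1%). *Gdf10* or *Fmo2* cells had 0.616 and 0.520 times the others, or 0.237 and 0.188 times without cells of a further subset. *Crabp1* cells had 2.83 and 3.20 CPM, and those of no other subset 0 and 8 UMIs of *Tbx5*. By *Pi16* count *Tbx5* ran from 3.86 up to 14.9 CPM at puberty, and its adult levels from 2.55 up to 20.8 CPM.

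*Prrx1* had 593 and 614 CPM in *Pi16*+*Dpp4*+ cells (1.34 and 1.63 times the others) and its lowest levels among the subsets in *Crabp1* cells, 224 and 240 CPM (0.397 and 0.453 times). After thinning it was detected in 79.7% and 78.6% of *Pi16*+*Dpp4*+ cells but in 38.5% and 42.3% of *Crabp1* cells (unthinned 98.5% and 97.8%, and 77.5% and 75.4%). It stood lower at each step of *Crabp1* count, 565, 290, 220 and 129 CPM at puberty, with adult levels of 530, 301, 233 and 150 CPM. *Thbs4* or *Bmp5* cells had 380 and 364 CPM, and 189 and 251 CPM in those of no other subset. By *Fabp4* count *Prrx1* ran from 580 down to 384 CPM and from 520 down to 350 CPM.

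By the 1.5-fold rule, *Pi16*+*Dpp4*+ cells had 1 of 9 members higher and 5 lower than the other pubertal *Pdgfra*+ cells (background 8.64% and 13.1% of genes) and 2 higher and 5 lower in the adult (8.53% and 11.2%). *Tbx3*, *Tbx18*, *Meox1*, *Meox2* and *Twist2* were the 5 lower ones at both stages. *Crabp1* cells had 4 higher and 3 lower of 8 (18.3% and 12.5%) at puberty and 4 higher and 4 lower of 9 (10.4% and 10.3%) in the adult. *Gdf10* or *Fmo2* cells had 2 higher and 1 lower of 8 (4.73% and 2.28%), then 1 and 1 of 9 (2.22% and 3.05%). *Thbs4* or *Bmp5* cells had 3 higher and 0 lower (7.48% and 3.90%), then 2 and 3 (4.21% and 4.92%), and *Fabp4* cells 1 and 0 (8.82% and 7.54%), then 0 and 3 (4.32% and 6.95%).

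The counts of 0 lower at puberty did not hold in cells of a single subset. There *Thbs4* or *Bmp5* cells had 3 higher and 3 lower of 9 (background 13.1% and 11.6%), with *Tbx5* at 0.295 and *Prrx1* at 0.332 times the cells outside the subset and *Twist1* lower too. *Fabp4* cells had 2 higher and 3 lower of 8 (11.8% and 11.5%), with *Tbx5* at 0.372 and *Meox2* at 0.317 times and *Prrx1* the other one lower. In the adult the lower members were 5 and 4 of 9 (9.70% and 9.02%). *Gdf10* or *Fmo2* cells had 2 higher and 3 lower of 8 at puberty (12.5% and 9.52%) and 2 and 2 of 9 in the adult (5.70% and 6.19%). The members called in *Crabp1* cells were the same, against a larger background (28.2% and 17.1% at puberty, 18.0% and 13.5% in the adult). *Pi16*+*Dpp4*+ cells had 1 higher and 4 lower of 8 at puberty (9.49% and 14.3%), *Meox1* being below the level filter, and 2 and 5 of 9 in the adult (10.2% and 14.5%).

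*Tcf21* was too rare for such contrasts. It was seen in 39 pubertal and 34 adult *Pdgfra*+ cells, and in 0 of 927 and 0 of 3117 *Thbs4* or *Bmp5* cells, which allows shares of cells with a UMI of up to 0.324% and 0.0962%, and 0 of 289 and 0 of 2672 *Crabp1* cells, which allows up to 1.04% and 0.112%. The *Gdf10* or *Fmo2* subset held 69.2% of its pubertal UMIs and the *Pi16*+*Dpp4*+ subset 73.6% of its adult UMIs.

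Mural cells, which wrap the walls of vessels, had 3 members higher than *Pdgfra*+ cells at both stages, *Tbx3*, *Tbx5* and *Meox2*. *Tbx5* had 70.4 CPM (63.3 to 78.1) and 43.3 CPM (36.1 to 51.5), 5.86-fold and 4.08-fold the fibroblasts. *Tbx3* had 62.2 and 71.9 CPM (7.22-fold and 4.01-fold), and *Meox2* 70.2 and 76.7 CPM (2.23-fold and 2.19-fold). After thinning, 15.5% and 11.8% of mural cells had *Tbx5*, 16.6% and 19.5% *Tbx3* and 16.4% and 19.0% *Meox2* (unthinned 24.6% and 18.4%, 28.7% and 29.5%, and 30.1% and 32.2%). Lower were *Twist1* (94.3 and 107 CPM, 0.509 and 0.498 times), *Twist2* (12.5 and 8.52 CPM, 0.224 and 0.182 times) and *Prrx1* (171 and 201 CPM, 0.307 and 0.408 times), and in the adult also *Tbx15* (0.593) and *Meox1* (0.308). Of the 15 adult *Meox1* UMIs 11 came from 2 cells with *Rgs5* only, and cells with at least 3 UMIs of *Myh11* or of *Rgs5* had 1.14 CPM in place of 5.11.

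These 3 higher and 3 lower of 8 members at puberty, and 3 and 5 of 9 in the adult, stand against a background of 29.0% and 24.9% of all genes at puberty and 28.5% and 21.6% in the adult. Between stages *Tbx18* was higher in adult mural cells, 17.3 to 30.0 CPM (1.74-fold, 1.28 to 2.36), and *Tbx5* lower (0.615, 0.498 to 0.755), 1 and 1 of 8 members against a background of 18.6% and 6.19%. The median log2 ratio of all genes there was 0.16.

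The make-up of the mural cells moved as well. Cells with both *Myh11* and *Rgs5* were 278 of 783 at puberty and 208 of 457 in the adult, and *Rgs5*-only cells 27 and 65. *Tbx5* was at 75.0 and 54.9 CPM with both markers, 71.1 and 40.2 with *Myh11* only and 6.16 and 11.3 with *Rgs5* only, the last from 1 and 3 UMIs. With both markers its stage ratio was 0.732 (0.532 to 0.998), within 1.5-fold. The markers of the *Rgs5*-only cells were mixed. Their *Dcn* was at 5134 and 2608 CPM, against 124 and 235 CPM in cells with both, and their *Acta2* at 86.3 and 110 CPM, against 6319 and 4382 CPM. The 6 mural markers other than *Myh11* and *Rgs5* summed to 512 and 1168 CPM in the *Rgs5*-only cells. These 6 summed to 13412 and 10225 CPM with both markers and to 60.8 and 38.1 CPM in *Pdgfra*+ cells. The *Prrx1* level of the *Rgs5*-only cells was 419 and 446 CPM. The summed level of 5 epithelial markers was 34.9 CPM in pubertal and 610 CPM in adult mural cells, 24 of the 32 adult epithelial-like cells met the mural rule, and those 32 cells had *Tbx3* at 98.8 CPM. In adult cells with both mural markers *Tbx3* was at 71.8 CPM. The part of these differences in the stage ratios was not tested.

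Cells with no *Pdgfra* UMI numbered 2656 and 1973, the mural cells among them, and had *Dcn* at 5206 and 6033 CPM. Few of them had at least 3 of 5 markers of another cell type. Endothelial-like cells (14 and 48) had *Meox2* at 157 and 267 CPM from 20 and 47 UMIs, the adult value above that of every fibroblast subset, and *Meox1* at 23.6 and 45.4 CPM from 3 and 8 UMIs. The mural rule was also met by 6 of the 14 and 6 of the 48. Skeletal muscle satellite-like cells (41 and 93) had *Prrx1* at 224 and 185 CPM and *Tbx15* at 53.8 and 35.0 CPM, and no UMI of *Tbx5*, *Tbx18*, *Meox1*, *Meox2* or *Tcf21*. Schwann-like cells had no UMI of *Tbx5*, *Tbx18*, *Meox1*, *Meox2*, *Twist1* or *Tcf21*, and the 38 adult *Tbx3* UMIs came from 4 cells.

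The partners and relatives of the members were read from 6 lists with 72 genes, of which 71 were listed for the libraries and 35 reached 5 CPM in *Pdgfra*+ cells. Past 1.5-fold between stages, 15 were higher in the adult and 1 lower, against a background of 12.6% and 4.89% of all genes. Among 7 bHLH partners and inhibitors 3 were higher, the E-protein genes *Tcf4* (361 to 974 CPM, 2.70-fold) and *Tcf12* (194 to 398, 2.05-fold) and the inhibitor *Id1* (25.7 to 46.5, 1.81-fold). By CPM alone, without intervals, *Id1* was the one named gene of these lists that did not keep its direction in all 5 subsets. It had 157 and 93.5 CPM in *Crabp1* cells and 50.8 and 46.8 CPM in *Fabp4* cells. Some of the others barely differed in a subset, such as *Nr2f2* at 68.0 and 69.6 CPM in *Thbs4* or *Bmp5* cells. Of 4 regulators of epithelial-mesenchymal transition 3 were higher, *Snai1* (4.00 to 11.5, 2.88-fold), *Zeb1* (409 to 870, 2.13-fold) and *Snai2* (12.9 to 26.5, 2.05-fold).

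Other T-box genes were mostly below the filter (10 of 12), and of the 2 above it *Tbx2*, the closest relative of *Tbx3*, went from 3.71 to 15.9 CPM (4.29-fold, 3.98 to 4.62). Among 9 measured homeobox genes 5 were higher, with *Alx4* at 1.96 and 17.7 CPM (9.03-fold, 8.20 to 9.96), *Msx1* at 16.3 and 32.4 (1.99-fold) and *Meis1* at 43.8 and 81.8 (1.87-fold). *Msc* (2.48 to 8.22, 3.32-fold) was the only mesodermal bHLH gene above the filter. Of 12 other mesenchymal factors *Pparg*, the regulator of fat cell differentiation, was 2.30-fold higher, *Nr2f2* 2.07-fold higher, and *Osr2* lower (249 to 106 CPM, 0.427). The median log2 ratio of these lists was 0.21 for the bHLH partners, 1.06 for the epithelial-mesenchymal regulators, 0.83 for the homeobox genes and 0.15 for the other mesenchymal factors, beside 0.14 for all genes.

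The genes whose levels over the 12 profiles were most like those of a member, among 10241 genes, are given as a description. For *Tbx5* they were *Plpp3* (r = 0.976), *Sema3c* (0.973) and *Gfpt2* (0.973), and for *Meox1* *Vezf1* (0.955), *Jam2* (0.947) and *Jade1* (0.946). For *Prrx1* they were *Ptk2b* (0.976), *Rai2* (0.975) and *Zfpm2* (0.970), for *Twist1* *Lpin2* (0.968), *Cotl1* (0.962) and *Zdhhc20* (0.960), and for *Twist2* *Marcksl1* (0.964), *Gm29101* (0.963) and *Psme4* (0.928). *Tbx3* was most like *Msrb2* (0.979), *Foxn3* (0.955) and *Pogz* (0.941), *Tbx15* most like *Mllt6* (0.954), *Ttc7* (0.937) and *Olfml1* (0.931), and *Tbx18* most like *Zbtb8a* (0.932), *Slc7a2* (0.928) and *Prickle1* (0.917). Among the genes most like *Meox2* were *Spock2* and *Fgf12* (both 0.939).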

How the data were processed

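Sorted Lin-CD24- mammary stroma was profiled with the 10x Genomics GEM-X 3′ kit per the labels, 1 library at each of 2 stages. The authors deposited filtered matrices of raw UMI counts, made with Cell Ranger 8.0.1. The build named in the submitters' processing notes is mm10, and 94.9% of the listed gene identifiers were in GENCODE M21 (GRCm38), from which gene positions were taken. Libraries held 255274670 and 259549498 UMIs.

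Cells with at least 500 genes and at most 10% mitochondrial UMIs were kept, and doublets were not removed in the main values. A marker counted from 1 UMI (2 for *Fabp4*). Counts were summed per cell set and divided to CPM. Shares have exact Clopper-Pearson intervals, sums exact Poisson intervals and ratios conditional binomial intervals, all at 95% and for counting error only. A share of 0 is given the limit of 3 counts. A gene was called higher or lower past 1.5-fold with a mean of at least 5 CPM, and named list genes were the 3 furthest in each direction. On counts simulated for the stage comparison over 10050 genes, 100% of 2-fold and 3-fold, 96.0% of 0.500-fold and 92.0% of 0.333-fold genes were recovered. Those counts held counting error only, with no spread between libraries or animals, so the shares do not bear on how well stage calls would repeat. Genes most like a member were the 3 with the highest r over the 12 profiles, subset markers left out, and 1 of them is not reported here. Python 3.11.15, scipy 1.17.1, scanpy 1.11.5 and edgeR 4.0.16 (TMM factors only) were used. With 1 library per stage no test was run. The members, lists and rules were chosen with earlier results of these data known.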

Additional observations from a re-analysis of the deposited data

Results flagged for a closer look

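There were 5 members with stage ratios on opposite sides of 1 in a pair of subsets, each interval clear of 1 both as measured and after division by the median ratio of all genes. *Tbx18* and *Prrx1* met this only as measured. *Tbx3* was at 2.34 in *Gdf10* or *Fmo2* cells and at 0.522 in *Crabp1* cells, and *Meox2* at 2.00 in *Pi16*+*Dpp4*+ cells and at 0.804 in *Gdf10* or *Fmo2* cells. The *Meox2* ratio was 0.694 with both *Gdf10* and *Fmo2*, but 1.20 with *Gdf10* only and 1.35 with *Fmo2* only. *Tbx5* was at 1.31 in *Pi16*+*Dpp4*+ cells and at 0.679 in *Thbs4* or *Bmp5* cells, where 2 marker UMIs in place of 1 gave 1.06. *Twist1* was at 1.23 in *Gdf10* or *Fmo2* cells and at 0.961 in *Pi16*+*Dpp4*+ cells, and *Tcf21*, from few UMIs, at 2.10 in *Pi16*+*Dpp4*+ cells and at 0.545 in *Gdf10* or *Fmo2* cells. With 1 library per stage these differences between subsets were not tested.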

How the results depend on the processing

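Scaling by TMM or by the median of all genes, a mean of per-cell CPM, stricter cell filters, thinning, removal of the cells Scrublet scored highest and a 2-fold rule left the count of members higher in adult *Pdgfra*+ cells at 2 and of those lower at 0. Equal weight of the 6 sets of cells gave 1 and 1, with *Tbx3* reversed to a log2 ratio of -0.03. Without the level filter 5 members in place of 3 were lower in pubertal mural cells. In cells of exactly 1 subset the pubertal *Meox1* log2 ratio of *Crabp1* over other *Pdgfra*+ cells reversed to -0.93. The pubertal share of each set, chosen after seeing the data, gave *Meox1* a ratio of 3.60. In the *Pdgfra*+ stage ratios 59 of 110 alternative values moved by less than counting error, 50 by more and 1, past 1.5-fold before, reversed; of the stage ratios within subsets 77, 63 and 0 of 140 did so, and of the subset contrasts 123, 157 and 1 of 281. Of any size, 10, 9 and 8 changed side of 1, among them *Prrx1* in *Thbs4* or *Bmp5* cells (1.33 in cells of that subset alone) and *Tbx18* in *Gdf10* or *Fmo2* cells (0.747). Scrublet removal moved the *Meox2* ratio of pubertal *Pi16*+*Dpp4*+ over other cells from 0.0842 to 0.0551, and *Tbx5* ratios of *Fabp4* cells from 0.669 to 0.319 and from 0.523 to 0.309. No paired analysis was possible because each stage had 1 library. Depth limits *Tcf21*, *Meox1* at puberty and the small cell sets, and counting error does not cover the spread between mice.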
